A study of Rattus norvegicus with 7 samples.

Results

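Among 7 RNA sequencing libraries from cultures of differentiating rat oligodendrocyte progenitors, 3 held many transcripts of astrocytes and 4 held fewer. The 3 libraries were chosen by their normalised count of Gfap, the intermediate filament protein by which astrocytes are usually recognised, with a threshold of 100000. Control replicates 1 and 2 and siRNLTR12-int replicate 1 lay above it, and control replicates 3 and 4 and siRNLTR12-int replicates 2 and 3 lay below. The nearest value inside was 224537 (control replicate 2) and the nearest outside was 44392 (control replicate 4). Gfap was measured in the same libraries that it divides, so every gene counts as used by the choice. All differences between the sides are therefore given as descriptions, with no test.

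Oligodendrocyte progenitors give rise to the cells that myelinate axons in the central nervous system. Astrocytes are glia that clear glutamate and potassium, move water through aquaporin channels and respond to injury by a reactive state. Microglia are the resident macrophages of the brain and make C1q, the first component of the complement cascade. Interferons act on their receptors to induce a shared set of antiviral genes through transcription factors of the STAT and IRF families.

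The cultures came from wild-type rats (labelled WT) at postnatal day 7, with about 40000 cells seeded per well of plates with 12 wells. The 4 control libraries received a control siRNA and the 3 siRNLTR12-int libraries one directed at RNLTR12-int, a retroviral sequence resident in the rat genome, all with Lipofectamine RNAiMAX, and all were then in differentiating medium for 4 to 5 days. The labels call the libraries biological replicates and name no animal, culture, sex or day for any of them. Each side holds both treatments, with 2 control libraries and 1 siRNLTR12-int library above the threshold and 2 of each below it. Differences between the sides were adjusted for the siRNA, and the siRNA comparison itself was set aside. RNLTR12-int was not analysed here.

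Recovered reads ranged from 22523873 to 61803693 per library, and the ranges of the sides overlapped. Progenitor transcripts were present in every library, and Pdgfra had at least 13936 normalised counts in each. The libraries above the threshold were not alike. The median chi-square per gene was 3.90 between control replicate 1 and siRNLTR12-int replicate 1. It was 17.7 and 20.8 between control replicate 2 and those libraries, and 10.1 to 30.6 between control replicate 2 and the libraries below the threshold. Pairs below the threshold had values from 1.47 to 7.10. This measure also grows with the number of reads.

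Sides set at the widest gap of Aqp4 or of Slc1a3 held the same libraries as those set by Gfap. Below, values for the libraries above the threshold are given in the order control replicate 1, control replicate 2, siRNLTR12-int replicate 1. Those below follow as control replicates 3 and 4, then siRNLTR12-int replicates 2 and 3. Gfap had 262591, 224537 and 306397 normalised counts above the threshold, against 27204, 44392, 19440 and 20478 below it. Aqp4, the water channel of astrocyte endfeet, had 89062, 108704 and 89124, against 27671, 27960, 19904 and 19388. Slc1a3, a glutamate transporter, had 87473, 66436 and 93776, against 35298, 32550, 41581 and 39969. All 3 genes were thus present on both sides, and "astrocyte-rich" describes a larger amount and not presence against absence. The siRNA-adjusted log2 differences were 3.26, 1.97 and 1.18, or 9.57, 3.91 and 2.27 times. In bulk samples fewer cells of a type and less RNA per cell cannot be told apart.

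A gene was called higher or lower where all libraries above the threshold lay on 1 side of all libraries below it and the siRNA-adjusted difference was at least 1 on the log2 scale, a factor of 2. Separation was judged over both siRNA groups together. A gene could therefore separate the sides within each group and still not be called. Of 18225 genes whose normalised counts averaged 10 or more, 1544 were called higher (8.47%) and 468 lower (2.57%). The median difference over all these genes was -0.01. Since Gfap chose the sides, these percentages are a background to read the gene lists beside, and nothing is drawn from them. Leaving out control replicate 2 brought the genes called lower to 759. No siRNLTR12-int library above the threshold remains without siRNLTR12-int replicate 1, so differences given for that setting come from the control libraries alone.

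Astrocyte markers were higher as a list. The list includes the 3 genes that mark the split, and so do its counts, level and share below. The astrocyte list had 31 measured members, of which 20 were called higher and 0 lower, with a median log2 difference of 1.38. Its level, taken in each library as its members' average log2(normalised count + 1), was 13.51, 13.48 and 13.60 above the threshold and 12.15 to 12.22 below it. The list took 2.81%, 2.36% and 2.98% of all normalised counts above the threshold and 0.958% to 1.01% below. S100b, a calcium-binding protein of astrocytes, had 26338, 22460 and 30433 counts, against 5582, 7387, 6073 and 5674. Gja1, the astrocyte connexin, had 49497, 40504 and 51171, against 10504, 10110, 13606 and 12235. The sides were far apart in both genes, at log2 differences of 2.10 and 2.07. Slc39a12, a zinc transporter, differed by 2.41, and Aldh1l1, a folate enzyme used as an astrocyte marker, by 2.05. Among the 11 members that were not called were Vim (0.96), Sox9 (0.83), Aldoc (0.63), Hepacam (0.58), Mfge8 (0.06) and Cd44 (-0.24).

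The transporters and enzymes with which astrocytes handle glutamate, GABA, potassium and water followed the markers, although the lists share members. Of 24 measured members 13 were called higher and 0 lower, and all 24 had a positive difference, with a median of 1.19. Slc7a11, the cystine and glutamate exchanger, had 30610, 34740 and 29934 normalised counts above the threshold and 3246, 3094, 5365 and 4533 below it. That difference, 3.06 on the log2 scale or 8.33 times, was more than that of Aqp4. Maob, a monoamine oxidase, differed by 1.78, Glul, glutamine synthetase, by 1.77, and Slc1a2, the second astrocyte glutamate transporter, by 1.62. The potassium channel Kcnj10, at 0.36, was not called.

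**Figure D1:**
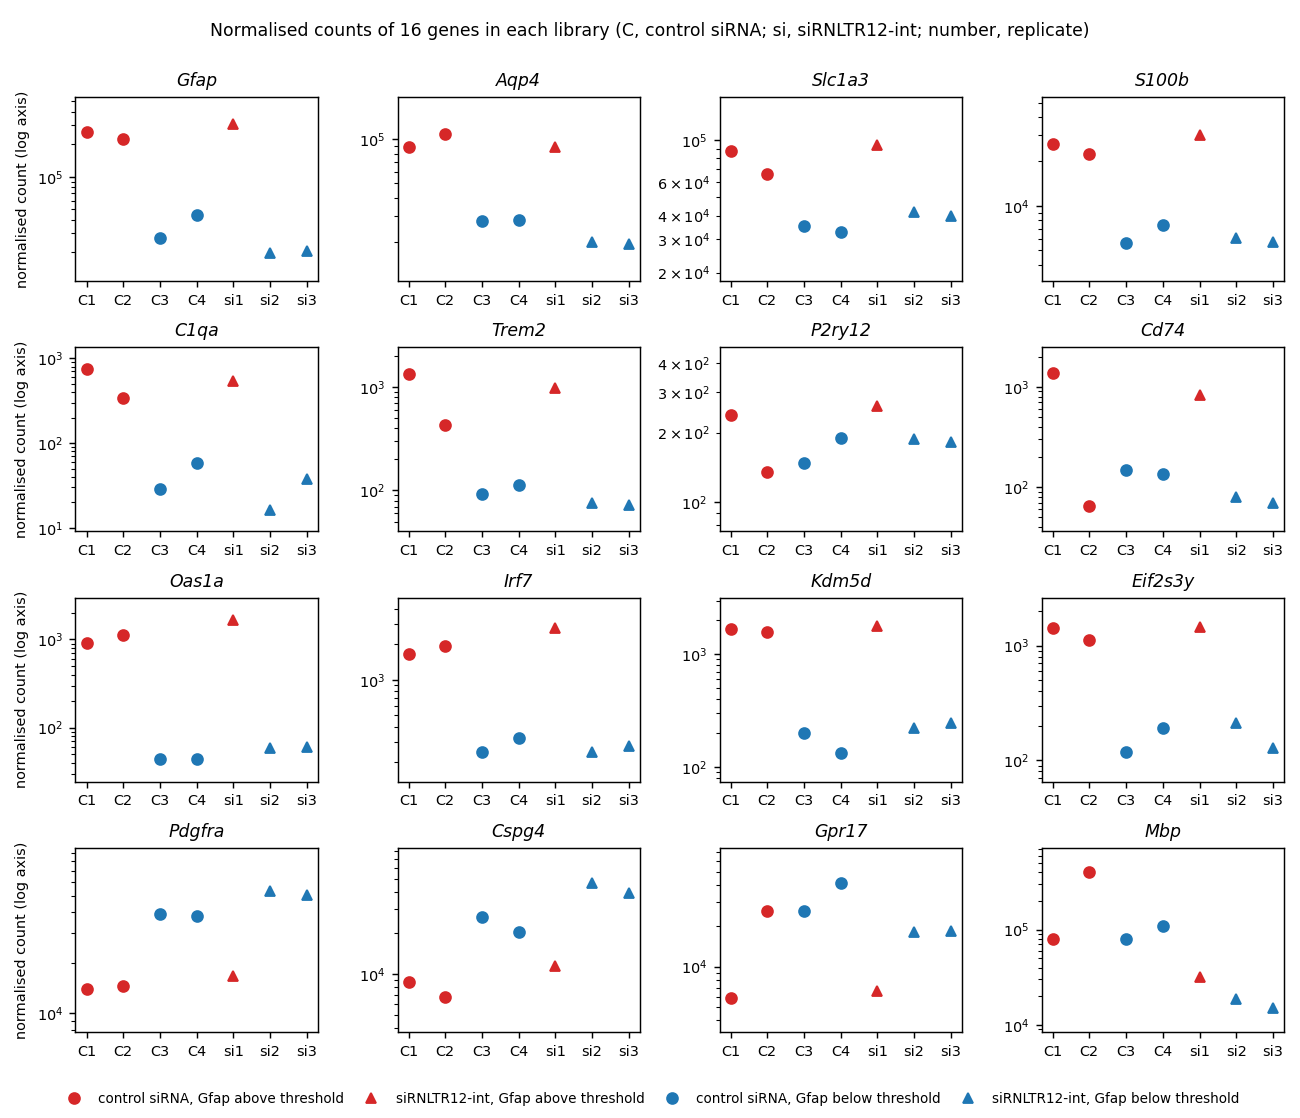
Normalised counts of 16 genes (log axis) in each of the 7 libraries, 1 point per library, with C for control siRNA, si for siRNLTR12-int and the replicate number on the horizontal axis. Red points are libraries above the Gfap threshold and blue points those below. The colours separate in Gfap, Aqp4, Slc1a3, S100b, C1qa, Trem2, Oas1a, Irf7, Kdm5d, Eif2s3y, Pdgfra and Cspg4, and overlap in P2ry12, Cd74, Gpr17 and Mbp.

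Genes of reactive astrocytes were mixed. Of 27 measured members 9 were called higher and 2 lower, with a median of 0.61, and the list levels of the sides overlapped (9.11 to 10.37 above, 8.88 to 9.40 below). Serping1, the inhibitor of the complement protease C1, had 7123, 1880 and 8329 normalised counts, against 603, 709.6, 936 and 812. Complement C3 had 2988, 1334 and 4784, against 398, 495, 665 and 698. In both genes control replicate 2 was the lowest library above the threshold and still above every library below it. Lcn2, an iron-binding secreted protein, differed by 2.03 and the ferroxidase Cp by 2.16. Emp1 (-1.66) and Tgm1 (-1.23) were called lower. Osmr, Socs3 and Timp1, genes of the same reactive list, differed by 0.16, 0.08 and 0.02. Spp1, also of that list, differed by 2.80 and was not called. Its counts were 41744, 4194 and 49640, against 2591, 2498, 4729 and 4487. Control replicate 2 thus exceeded both control libraries below the threshold but not the siRNLTR12-int libraries there.

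Microglial and macrophage transcripts were higher by more than the astrocyte markers in the median. Of 32 measured members 26 were called higher and 0 lower, and the median difference was 2.41. Without control replicate 2 it was 2.99. The list level was 9.75, 8.12 and 9.57 above the threshold and 6.71 to 7.09 below, with control replicate 2 between the others. The list took 0.191%, 0.0405% and 0.138% of all counts above the threshold and 0.0237% to 0.0264% below. Trem2, a lipid-sensing receptor of microglia, had 1352, 430.3 and 976 normalised counts, against 92.2, 114, 76.0 and 72.5. Csf1r, the receptor on which microglia depend for survival, had 3228, 1049 and 2502, against 315, 436, 236 and 293. Cx3cr1, the fractalkine receptor, had 409.5, 108 and 92.3, against 18.1, 44.4, 19.0 and 8.06. These receptors separated the sides, while P2ry12, the purine receptor of resting microglia, did not. P2ry12 had 238, 135 and 259.5 counts, against 147, 189.8, 187 and 183, and control replicate 2 was the lowest of all libraries. Mrc1, the mannose receptor of perivascular macrophages, differed by 3.47 (749, 204 and 1405, against 51.7, 42.6, 72.2 and 87.9).

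Markers of lymphocytes and granulocytes were mostly near 0. Only 6 of 19 measured members had a mean of at least 10. Cd3e, Cd3d and Cd79a had at most 3.65 normalised counts in any library. The 3 called members were Cd4 (2.51), Cd8b (2.22) and Cd8a. Cd4, which rat macrophages also carry, had 954, 416 and 1221 counts, against 116, 186, 141 and 134.

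Complement genes had the highest median of the 36 lists in the fit of all 7 libraries, at 2.49, with 14 of 18 measured members called higher and 0 lower. C1qa, C1qb and C1qc encode the chains of C1q and are also in the microglia list. C1qa had 749, 339.6 and 543 normalised counts, against 28.4, 58.5, 16.5 and 37.9. C1qb had 277, 140.1 and 112, against 6.90, 19.5, 11.4 and 12.1, and C1qc had 379, 212 and 95.9, against 20.7, 28.4, 3.80 and 3.22. The chains differed by 3.91, 3.64 and 3.87 on the log2 scale, or 15.0, 12.4 and 14.6 times. C1s and C2, a protease and a convertase subunit of the cascade, differed by 2.29 and 2.60. Values of Cfb (3.52) and C4a (2.60) are uncertain, since each symbol has 2 identifiers in the table. The Cfb difference was 2.24 without siRNLTR12-int replicate 1 and 2.28 without siRNLTR12-int replicate 2. The other identifier of Cfb did not separate the sides, at 132, 140.1 and 102 counts, against 84.5, 293, 166 and 70.9. That of C4a did, at 817, 885 and 930 counts, against 103, 239.5, 53.2 and 104. Cfi and Cd55 differed by -0.06 and -0.03.

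Antigen presentation genes depended on which libraries were counted. Of 18 measured members 7 were called higher and 0 lower, and all 18 had a positive difference, with a median of 2.03. The members Ctss and Cd74 are also in the microglia list. The median was 1.28 without control replicate 1 and 1.26 without siRNLTR12-int replicate 1. The class I genes RT1-A1 and RT1-A2 differed by 2.62 and 2.52, and B2m, their light chain, by 1.34. RT1 genes have near-identical copies, so the split of reads among them is uncertain. The class II genes RT1-Ba, RT1-Bb, RT1-Da and RT1-Db1 did not separate the sides. Cd74, the class II invariant chain, had 1377, 65.3 and 826 normalised counts, against 147, 137, 79.8 and 70.1, so control replicate 2 was the lowest library of all. RT1-DMb, which helps load peptides onto class II molecules, was called (2.67), although control replicate 2 (30.5) was just above control replicate 4 (28.4). Nlrc5, which drives class I genes, was called (2.24), and Ciita, which drives class II genes, was not (0.75).

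Lysosomal and phagocytic genes were higher by less, with 10 of 26 measured members called higher, 0 lower and a median of 0.997. The sides did not overlap in the list level (11.60 to 12.44 above, 10.74 to 11.09 below). The called members included the cathepsins Ctss (3.07), Ctsz (2.06), Ctsb (1.44) and Ctsd (1.42), the lysosomal membrane proteins Laptm5 (2.75) and Cd68 (2.30), and progranulin, Grn (1.53). Ctss, Laptm5 and Cd68 are also in the microglia list. The proton pump subunit Atp6v0d2 (2.21), the membrane proteins Lamp1 (0.69) and Lamp2 (0.50) and the hexosaminidase subunit Hexa (0.69) were not called.

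Interferon response genes separated the sides in nearly every member. Of 31 measured members 28 were called higher and 0 lower, with a median of 1.94, and the remaining Isg15, Irf1 and Ifih1 differed by 0.40, 0.76 and 0.83. The list level was 9.86, 10.00 and 10.55 above the threshold and 7.93 to 8.18 below. Oas1a senses double-stranded RNA. Among genes called higher with a mean of at least 100 and an established symbol, it had the largest difference, at 4.60 or 24.3 times. Its counts were 917, 1115 and 1656, against 44.0, 44.4, 59.5 and 59.6. Rsad2, the antiviral enzyme viperin, had 1418, 2080 and 2447, against 114, 238, 136 and 88.7. Usp18, which restrains interferon signalling, had 436, 507 and 820, against 49.1, 69.2, 65.8 and 62.9. Irf7, Ifit1, Rtp4 and Oas2 differed by 2.97, 3.00, 3.06 and 3.07. The signalling genes Stat2 and Irf9 differed by 1.14 and 1.71. Unlike the microglia markers, this list was as high in control replicate 2 as in control replicate 1. Oas genes and guanylate-binding proteins have near copies, so single members of those families are uncertain.

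Promoters of the interferon list are shown because its members varied together across libraries. STAT and IRF complexes bind an interferon-stimulated response element, here searched as GAAANNGAAA on both strands, with overlapping matches counted. RefSeq promoter sequences (GRCr8, 250 bases before to 50 after the start) were found for 21 of the 31 members. Of these, 14 held a match (66.7%), against 3.92% of all 33469 promoters of the same length. The list was made of interferon response genes, so this share describes the choice of list and not the libraries. Among the 19 members called higher that had a promoter, 13 held a match. The 3 stretches below, with the match in capitals and 5′ to 3′ on the gene's strand, lie outside annotated genes. They belong to the interferon-induced antiviral protein Ifit3 (chr1:241527257-241527316, plus strand), the virion-tethering protein Bst2 (chr16:18255058-18255123, minus strand) and the guanylate-binding protein Gbp5 (chr2:233910918-233910977, plus strand).
Ifit3: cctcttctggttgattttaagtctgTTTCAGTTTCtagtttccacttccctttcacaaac
Bst2: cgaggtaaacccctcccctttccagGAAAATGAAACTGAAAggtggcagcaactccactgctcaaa
Gbp5: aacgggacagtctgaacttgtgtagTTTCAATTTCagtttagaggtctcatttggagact
Ifit3, Bst2 and Gbp5 differed by 2.53, 1.83 and 1.86 on the log2 scale, and all were called higher. Ifih1 was not called (0.83), and its promoter held a match too. The matches describe letters in these windows, and binding was not measured.

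Inflammatory cytokines and chemokines did not separate the sides as a list. Of 27 measured members 4 were called higher and 0 lower, and list levels overlapped, at 8.49, 6.71 and 9.00 above the threshold and 6.68 to 7.80 below. Control replicate 2 lay with the libraries below. The median was 1.001, and 1.70 without control replicate 2. The called members were the chemokines Cxcl12 (1.85) and Cxcl10 (1.69), the cytokine Il18 (1.52) and the adhesion molecule Vcam1 (1.46). Ccl7 (2.46), Ccl2 (2.25), Ccl20 (1.82) and Il1rn (1.79) had large differences but were not called, since the sides overlapped over both siRNA groups together. Ccl7, Ccl2 and Ccl20 did separate the sides within each siRNA group, whereas Il1rn overlapped in the controls. Ccl2 had 1388, 227 and 3000 normalised counts, against 122, 110, 730 and 553. Tnf (0.84), Il1b (0.46) and Cxcl2 (0.49) were not called either.

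**Figure D2:**
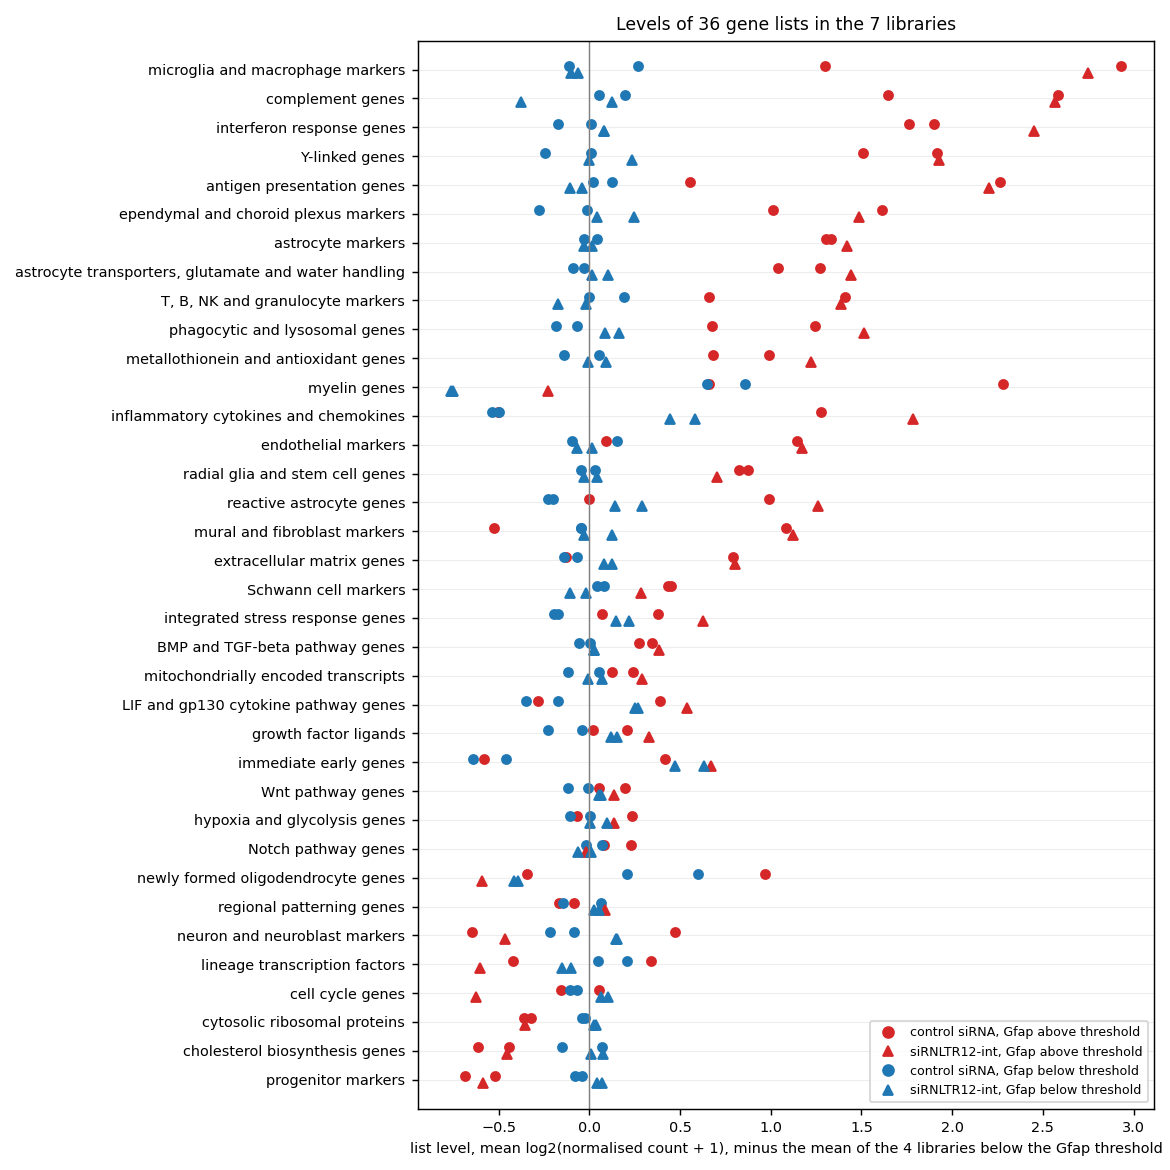
Level of 36 gene lists in the 7 libraries, as the members' average log2(normalised count + 1) minus the mean of the 4 libraries below the Gfap threshold. Each point is 1 library (circles, control siRNA; triangles, siRNLTR12-int; red, above the threshold; blue, below), and lists are ordered by the mean of the red points. Astrocyte markers lie close together in the 3 red libraries (13.48 to 13.60 before subtraction), whereas microglia markers spread from 8.12 to 9.75.

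Genes of ependymal cells, the ciliated lining of the ventricles, and of choroid plexus were higher in part. Of 20 measured members 10 were called higher and 0 lower, with a median of 1.49, or 0.88 without control replicate 1. The called members were mostly parts of motile cilia, such as the dynein chains Dnah11 (2.69) and Dnah9 (2.22), Hydin (2.26) and Enkur (2.44). Other cilia members, Dnah5 (-0.65), Ccdc39 (0.14) and Ccdc153 (-0.17), were not called. Dnah11 had 1162, 899.8 and 976 normalised counts, against 163, 186, 130.4 and 127. Tmem212, used here as the defining ependymal marker, had only 45.0, 29.8 and 50.3, against 0, 3.55, 6.33 and 1.61. Choroid plexus markers were low, with Ttr at 193, 29.0 and 88.6, against 24.99, 15.97, 25.3 and 54.0, which overlap. Genes of radial glia and neural stem cells had 9 of 19 measured members called higher and 0 lower, with a median of 0.91. Among them were Thrsp (2.98), Hopx (1.91), Prom1 (1.70) and the fatty acid binding protein Fabp7 (1.68), while Sox2 (0.17), Nes (0.46) and Hes5 (-1.49) were not called.

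Vascular and mesenchymal markers were mixed. Cldn5, a tight junction protein of brain endothelium, was at 0 in every library, and Cdh5 reached 48.4 normalised counts at most. Of 10 endothelial genes that passed the filter on low values 3 were called higher, among them the TGF-beta co-receptor Eng, at 1365, 276 and 1309, against 135, 119, 154 and 155. The endothelial median was 0.39, and 0.24, 0.71 and 0.22 without control replicate 1, control replicate 2 and siRNLTR12-int replicate 1. Among 22 mural and fibroblast genes 3 were called higher and 2 lower. The 2 lower genes were Cspg4 (-1.72) and Pdgfra (-1.52), which are also in the progenitor list below. Col3a1, a fibrillar collagen of fibroblasts, had 1241, 42.1 and 969 counts, against 166, 58.5, 179 and 181, so control replicate 2 was the lowest library of all. The Col3a1 difference was 1.70, and 0.61 without control replicate 1 or 3.03 without control replicate 2. Pdgfrb, a receptor of mural cells, had 2028, 2808 and 2253, against 849.8, 914, 652 and 677, a difference of 1.57. Of the other mural markers, Acta2 differed by -0.76 and was not called, and Rgs5 had at most 18.27 counts in any library. Of 35 matrix genes 8 were called higher, led by Loxl1 (2.50) and the proteoglycan Bgn (1.95), and 4 lower, led by the laminin chain Lama4 (-1.70). The matrix median was 0.67, and 0.40 without control replicate 1.

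Progenitor markers were lower where Gfap was higher. Of 22 measured members 7 were called lower and 1 higher, with a median of -0.80, and the list levels did not overlap (12.28, 12.45 and 12.38 above the threshold, 12.89 to 13.04 below). Pdgfra, the receptor for the main progenitor mitogen, had 13936, 14570 and 16580 normalised counts, against 39041, 38097, 53301 and 50749. Cspg4, the NG2 proteoglycan, had 8691, 6702 and 11394, against 26028, 20224, 46972 and 39704. Both genes were lower in all 3 libraries above the threshold, by 1.52 and 1.72 on the log2 scale. Pcdh15, a cadherin, differed by -1.83, the hyaluronan-binding Vcan by -1.52 and the lineage factor Olig2 by -1.06. Ptprz1, a phosphatase that radial glia also make, differed by -0.04. Emid1 was the member called higher (2.32). Gpr17, a receptor of committed progenitors, was not called, since control replicate 2 (25917) was as high as control replicate 3 (25891). Its other values were 5915 and 6558 above the threshold and 41839, 18081 and 18200 below.

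Among 22 lineage transcription factors 4 were called lower and 0 higher. These were Nkx2-2 (-1.58), Myt1 (-1.42), Sox8 (-1.09) and Olig2 (-1.06), which act in the oligodendrocyte lineage. Nkx2-2 had 1025, 1993 and 1277 normalised counts, against 4339, 4811, 3103 and 3798. Sox10 differed by -1.40 and was not called, although it separated the sides within each siRNA group. Myrf, the factor needed for myelin gene expression, differed by 0.03. The list median was -0.09 and ran from -0.39 (without control replicate 2) to -0.06 (without siRNLTR12-int replicate 3).

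Myelin genes did not follow the split. Of 29 measured members 1 was called higher (Aspa, 2.20) and 1 lower (Ninj2, -1.44). List levels were 10.56, 12.18 and 9.67 above the threshold, against 10.55, 10.76, 9.15 and 9.14, so control replicate 2 lay above all and siRNLTR12-int replicate 1 below control replicates 3 and 4. The median was 0.83, and 0.23 without control replicate 2 or 1.33 without control replicate 1. Mbp, myelin basic protein, had 80170, 401821 and 32168 normalised counts, against 78977, 109426, 18730 and 15076. Control replicate 1 and control replicate 3, which lie on different sides, thus had nearly the same Mbp count. Aspa, the enzyme that splits N-acetylaspartate, had 1364, 2414 and 1015, against 496, 685, 117 and 127. Genes of newly formed oligodendrocytes had 0 of 21 measured members called in either direction and a median of -0.06. That median ran from -0.36 (without control replicate 2) to 0.25 (without control replicate 1). It was -0.17 without control replicate 3, -0.02 without control replicate 4 and -0.09 without siRNLTR12-int replicate 1.

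**Figure D3:**
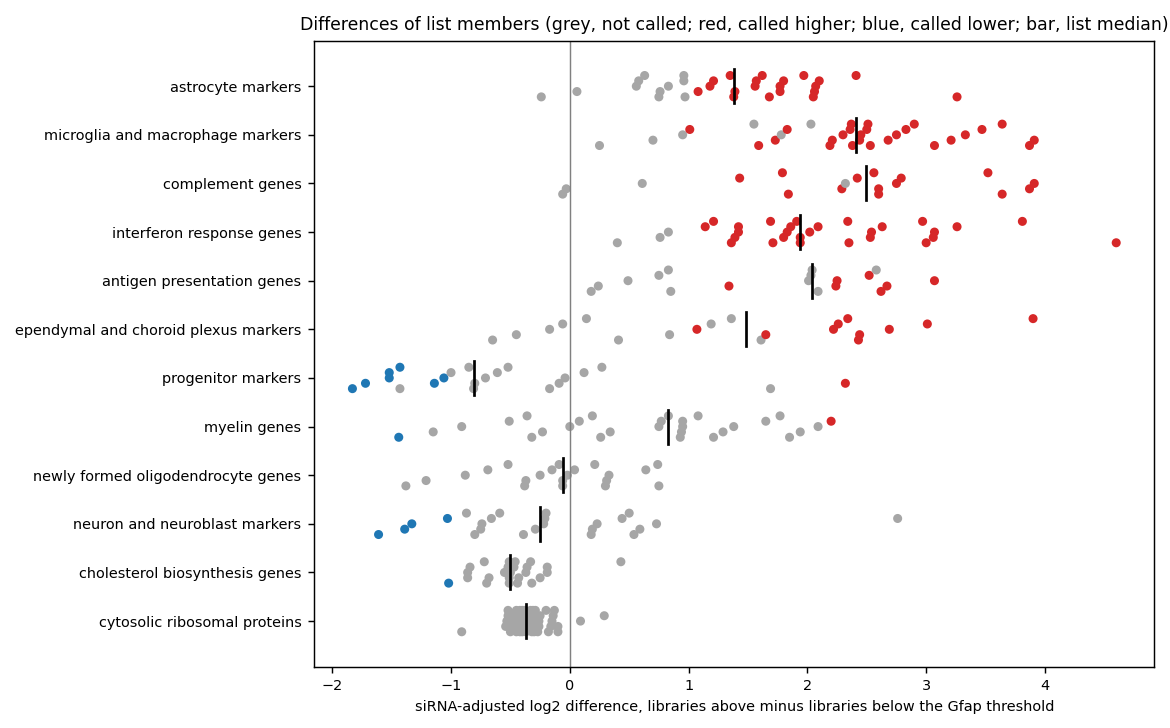
Each point is 1 measured gene of 12 lists, placed by its siRNA-adjusted log2 difference (libraries above minus libraries below the Gfap threshold). Red points were called higher, blue points lower and grey points neither, and the black bar is the list median (2.41 for microglia, 1.94 for interferon, 1.38 for astrocyte and -0.80 for progenitor genes).

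Neuronal transcripts were mixed. Of 24 measured members 9 had a positive and 15 a negative difference, and 4 were called lower and 0 higher, namely the growth cone protein Gap43 (-1.61), the secreted glycoprotein Reln (-1.39), Rbfox3, which encodes NeuN (-1.33), and the RNA-binding Elavl4 (-1.03). Rbfox3 had 102, 172 and 114 normalised counts, against 288, 280.3, 408 and 339. Dcx, a marker of migrating neuroblasts, had 4362, 9259 and 4635, against 9519, 10073, 8908 and 8724, with control replicate 2 inside the range of the libraries below. Stmn2, a microtubule regulator of neurons, had 228, 502 and 270 counts, against 155, 202, 184 and 220.0, a difference of 0.73 that was below the size needed for a call. The list median was -0.26, and -0.77 without control replicate 2, -0.12 without control replicate 1, -0.40 without control replicate 3 and 0.13 without siRNLTR12-int replicate 1. Among 11 Schwann cell genes 2 were called higher, Plekha4 (1.61) and Cmtm5 (1.10).

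Cell cycle genes mostly had a negative difference, although the list levels of the sides overlapped (9.65 to 10.33 above the threshold, 10.17 to 10.38 below). Of 31 measured cell cycle genes 28 had a negative and 3 a positive difference, and 0 were called higher and 1 lower. The called gene was Ccnd1, the cyclin of the G1 phase, at 15569, 6432 and 13694, against 21465, 17251, 39287 and 31277 (-1.11). The list median was -0.30, and 0.01 without siRNLTR12-int replicate 1. The growth factor list had 4 of 26 members called higher and 3 lower. Higher were Igf1 (1.87), Tgfb1 (1.51), Fgf2 (1.11) and Hgf (1.10), and among those lower were Tgfa (-1.62) and Hbegf (-1.43). Igf1 had 2410, 710.4 and 1738 normalised counts, against 408, 408, 398 and 384. Tgfa, a ligand of the EGF receptor, had 2193, 4023 and 2652, against 8358, 10460, 7680 and 8149. Hbegf, another such ligand, differed by -0.66 without siRNLTR12-int replicate 1.

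The counts for signalling pathways are small and are to be read beside the 8.47% of all genes called higher and 2.57% called lower. Of 34 BMP and TGF-beta genes 4 were called higher and 0 lower, with the ligand Bmp6 at 2.34, the receptor Bmpr1b at 1.82 and the inhibitor Chrdl1 at 1.19. Bmp6 had 710.0, 1387 and 471 normalised counts, against 135, 216, 115 and 112. The Id genes, which are targets of BMP signalling, differed by 0.75 to 0.86 and were not called. Of 20 Notch genes 3 were called higher, among them the receptor Notch2 (1.21), and 1 lower, the ligand Dll3 (-1.18). Of 31 Wnt genes 5 were called higher, among them the receptor Fzd1 (1.92) and the secreted inhibitors Sfrp5 (1.96) and Sfrp1 (1.63), and 2 lower, among them Lgr5 (-1.58). In the LIF and gp130 list 2 of 20 were called higher, and Stat3 differed by 0.58. Regional patterning genes, which record the brain region of origin, had 1 of 26 called higher, the forebrain factor Emx1 (1.57), and 3 lower, Irx1 (-1.65), En1 (-1.12) and Hoxb3 (-1.05). Irx1 had 103, 195 and 142 counts, against 462, 438, 406 and 478.

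Antioxidant genes were higher and cholesterol synthesis genes lower as lists. In the metallothionein and antioxidant list 7 of 22 measured members were called higher and 0 lower, with a median of 0.78. Nqo1, a quinone reductase, had 2943, 2064 and 4595 normalised counts, against 428, 857, 732 and 683 (2.29), and the glutathione transferase Gstm1 differed by 1.81. In the cholesterol list 24 of 25 members had a negative difference, with a median of -0.50, although only Stard4, a sterol transport protein, was called (-1.02). The list levels did not overlap, at 11.82 to 11.99 above the threshold and 12.28 to 12.51 below. Idi1 and Fdps, enzymes of isoprenoid synthesis in the pathway, differed by -0.86 and -0.72 and were not called.

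Cytosolic ribosomal proteins were lower by a small and even amount. Of 54 measured genes 52 had a negative difference, with a median of -0.37, and 0 were called in either direction. The levels did not overlap, at 11.55, 11.59 and 11.56 above the threshold and 11.87 to 11.95 below. The list took 0.588% to 0.642% of counts above the threshold and 0.835% to 0.873% below. Mitochondrially encoded transcripts differed by 0.17 in the median, with 0 of 12 called. Of 27 genes of the integrated stress response 4 were called higher and 0 lower. These were Slc7a11, the transcription factor Atf5 (1.83) and the serine synthesis enzymes Psat1 (1.18) and Phgdh (1.01), while Atf4 differed by 0.11 and Ddit3 by 0.42. Of 24 immediate early genes 1 was called higher, Atf3 (1.06), and 1 lower, the nuclear receptor Nr4a1 (-1.76). Of 25 hypoxia and glycolysis genes 2 were called higher, Ndrg1 (2.37) and Egln3 (1.02), and 2 lower, Slc2a3 (-1.28) and Ankrd37 (-1.17).

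Of 4 measured Y-linked genes 2 were called higher and 0 lower. Kdm5d, a histone demethylase encoded on the Y chromosome, had 1664, 1574 and 1770 normalised counts, against 202, 133, 223 and 246. Eif2s3y, a translation initiation factor of the same chromosome, had 1430, 1117 and 1451, against 117, 189.8, 211 and 129. Both genes separated the sides, by 3.14 and 3.10 on the log2 scale, and were above 0 in all 7 libraries. Usp9y did not separate them, at 1250, 1004 and 1158, against 1228, 1002, 1086 and 1093. Sry was not called, and control replicate 2 (30.48) was barely above siRNLTR12-int replicate 2 (30.38). Ddx3y had at most 5.74 normalised counts in any library. The labels give no sex, so the sex of the animals and the Gfap sides cannot be told apart. Kdm5c, the relative of Kdm5d on the X chromosome, went the other way without being called, at 6161, 8052 and 6493, against 9971, 9798, 10511 and 10583 (-0.57). Usp9y and its X-linked relative are close copies, as are the Kdm5 genes, so reads may be divided between them.

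The genes with the largest differences had varied roles, and several of them stand in the lists above. Among called genes with a mean of at least 100 and an established symbol, the 12 with the largest positive differences were Oas1a (4.60) and then Sulf1, C1qa, C1qc, Chrnb4, Rsad2, Ifitm1, Cldn9, Ccdc103, Cntnap5c, Cfb and FAM187A, from 3.93 down to 3.50. Sulf1, which trims heparan sulfate, had 2627, 1628 and 1944 normalised counts, against 150.0, 163, 86.1 and 120.1. Chrnb4, a nicotinic receptor subunit, had 699.5, 856 and 927, against 50.9, 39.0, 81.0 and 87.9. Ccdc103 and FAM187A are the genes next to Gfap in the RefSeq order of GRCr8. Ccdc103 had 2204, 1009 and 2106, against 259, 509, 34.2 and 41.9, and FAM187A had 3424, 1626 and 3491, against 348, 786, 60.8 and 95.9. Their differences, 3.53 and 3.50, became 2.04 and 2.17 without siRNLTR12-int replicate 1, which are the differences within the controls. Whether reads from the Gfap locus reach these neighbours was not tested. Kif18b, the neighbour on the other side of Gfap, differed by -0.87.

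Among genes called lower with a mean of at least 100 and an established symbol, Slc35d3, of the nucleotide sugar transporter family, had the largest difference. It had 37.3, 179 and 50.3 normalised counts, against 2393, 953, 5672 and 4683, a factor of 36.1. Leaving out siRNLTR12-int replicate 1 gave a factor of 18.2, and leaving out control replicate 2 gave 63.0. Vgf, a secreted neuropeptide precursor, had 764, 200 and 831, against 4868, 2862, 8694 and 8256 (-3.29). Acan, the core protein of perineuronal nets, had 132, 822 and 152, against 1355, 1717, 1282 and 1460 (-2.59). Gal, the neuropeptide galanin, differed by -2.34, the sodium channel Scn3a by -2.16 and Spry3, an inhibitor of receptor tyrosine kinase signalling, by -2.25. Susd5, Ctrb1, Sytl5, Rnf112 and Kcnip3 completed the set, at -2.72 to -2.16. Hmgb1-ps4 (-4.93, or -2.74 without control replicate 1) is a pseudogene copy of Hmgb1 and therefore uncertain.

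The sides could also be compared within each siRNA group, and those comparisons share no library. A log2 difference of at least 1 was found for 1799 genes in the controls (2 against 2) and 2553 in the siRNLTR12-int libraries (1 against 2). Both held for 1512 genes, 84.0% of the first set and 59.2% of the second. For differences of -1 or less the numbers were 608, 1047 and 367, or 60.4% and 35.1%. Across the 18225 genes, which are not independent replicates, Pearson's r between the differences was 0.75. In the controls and the siRNLTR12-int libraries the median was 1.27 and 1.52 for astrocyte markers, 1.97 and 2.97 for microglia markers, 1.79 and 2.23 for interferon genes and -0.78 and -0.91 for progenitor markers. The siRNLTR12-int comparison rests on 1 library above the threshold, so that library and the side cannot be told apart there.

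**Figure D4:**
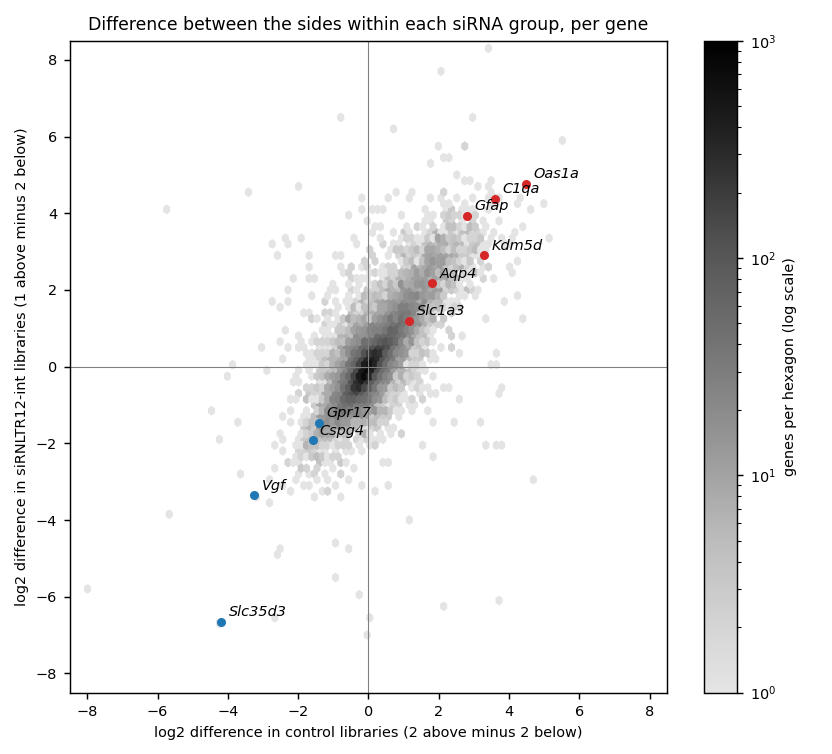
Log2 difference between the sides for 18225 genes, in the control libraries (horizontal axis, 2 above minus 2 below) and in the siRNLTR12-int libraries (vertical axis, 1 above minus 2 below). Grey hexagons show the number of genes on a log scale, and 10 named genes are marked. The cloud runs along the diagonal (Pearson's r 0.75 across genes), with Oas1a and C1qa at the upper right and Slc35d3 at the lower left.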

How the data were processed

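The table the authors deposited holds 1 signal for each of 32852 genes in each library, a read count divided by that library's size factor, and 33 genes carry no symbol. Per the submitters' processing notes, Salmon and DESeq2 were used with the build Rnor_6.0, and no versions are stated. The extraction protocol gives RNA integrity numbers of 9 to 10, depletion of ribosomal RNA and directional paired-end libraries. The authors' table of their own siRNA comparison was not used here. Whole reads were recovered by dividing each column by its smallest step, and 100% of the non-zero values came out whole (tolerance 0.01). The sources used here do not say how multi-mapped reads were divided, so near-identical gene copies are uncertain.

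Sides were set by a Gfap normalised count of 100000. For each of the 18225 genes with a mean of at least 10, limma 3.58.1 (R 4.3.3) fitted log2(normalised count + 1) on side and siRNA, and the coefficient of side is the difference reported. This scale understates the change of low genes. No test was run, since Gfap of the same libraries set the sides. The linear fit was tested on simulated data. The members and the 36 gene lists were chosen with earlier results of these data known.

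Genes named are Gfap, Aqp4 and Slc1a3, the 12 called genes with the largest difference each way (mean of at least 100, no provisional symbol), up to 4 called members per list with a mean of at least 100 or, where none is called, 2 with the highest mean, and defining cell type markers. All other names were chosen after their values were seen. Some list members are not reported here by name but stay in the list counts. Genes absent from the table, such as Itgam and Foxj1, were not analysed here.

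Alternatives were pseudocounts of 0.25 and 8, a minimum mean of 50 or none, rescaling by TMM or the upper quartile, no siRNA covariate, each siRNA group alone, edgeR 4.0.16 on the recovered reads, each library left out, and sides set by Aqp4 or Slc1a3. The differences without siRNLTR12-int replicate 1 repeat those of the control libraries alone.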

Additional observations from a re-analysis of the deposited data

Results flagged for a closer look

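Within the control libraries and within the 4 libraries below the Gfap threshold, 370 sets of values were checked for a library far from the others, and 26 stood out, where chance gives about 1 in 20. In control replicate 2 the myelin list level (12.18) and the counts of Mbp (401821), Mog (2556), Mag (67874) and Gad1 (1304) stood above the other controls. In control replicate 1 the levels of the inflammatory (8.49), extracellular matrix (10.6) and immediate early (9.46) lists stood above the other controls. The same held there for Ctss (1796), Il18 (337.8), Eng (1365), Tgfb1 (2352), Sfrp5 (382.7), Igf1 (2410), Cdh5 (44.97), Col3a1 (1241) and Ttr (193.3), and Dcx (4362) stood below them. Among the libraries below the threshold, control replicate 4 was high in the microglia list (7.09), Enkur (94.02), Lama4 (5542) and Phgdh (3028) and low in Col3a1 (58.54). In that set siRNLTR12-int replicate 3 was high in the mural and fibroblast list (7.54), siRNLTR12-int replicate 2 low in Sfrp5 (36.71) and control replicate 3 low in P2ry12 (147.4).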

How the results depend on the processing

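Over all alternatives the number of genes called higher ran from 1180 to 2547 (main value 1544) and the number called lower from 367 to 1042 (468). The highest counts, 2547 and 1042, came from the siRNLTR12-int libraries alone, where fewer libraries have to lie apart. Leaving out 1 library gave 1463 to 2166 genes called higher and 450 to 759 called lower, and without control replicate 2 the counts were 2166 and 759. Of the 1544 and 468 genes called in all libraries, 1484 and 446 kept their call without control replicate 2, and 1335 and 356 did so in the control libraries alone. With upper-quartile rescaling 72.4% of calls were higher, against 76.7%.

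The astrocyte median was 1.33 with upper-quartile rescaling, 1.27 in the control libraries alone and 1.52 in the siRNLTR12-int libraries alone, and 1.27 to 1.46 with 1 library left out. The interferon median was 2.23 and the progenitor median -0.91 in the siRNLTR12-int libraries alone. With 1 library left out the microglia median ran from 1.97 to 2.99 and the progenitor median from -0.89 to -0.66. The myelin median ran from 0.23 to 1.33. The causes of these changes were not tested. Under these alternatives no called gene named by the rule changed sign, and those that did, among the uncalled ones, include Nfasc, Sirt2, Ptprz1, Gad1, Col1a1, Kcnj13 and Cnp. No paired analysis was possible because the differences between the sides come from no test and the sides share 1 replicate number, that of control replicate 2 and siRNLTR12-int replicate 2.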
